A study of Mus musculus with 6 samples.

Results

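Contact between the nuclear lamina and the first mapped 10 Mb of each mouse autosome, the stretch nearest the centromere, was examined in 3 DamID maps of MEFs, the fibroblasts that grow out of dissociated mouse embryos. The window ran over 3 to 13 Mb of chromosomes 1 to 19 in the mm9 build, where the first fragment of each autosome lies at or just past 3 Mb. Its members were the 100 kb bins in which GATC fragments covered 50% of the length or more. There were 1891 such bins among 23940 on the autosomes (7.90%), between 97 and 100 on each chromosome. Of the 1900 possible bins, 9 were left out for cover, on chromosomes 10, 13, 14, 17 and 19. The windows were set against the 22049 bins of the rest of the same chromosomes.

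All cells were wild type MEFs of the C57BL/6 strain that received lentiviral shRNA, puromycin selection and then a lentivirus for Dam alone or Dam fused to a lamin. Dam is a bacterial adenine methyltransferase that marks GATC sites close to the lamin it is fused to. The maps for LmnA RNAi and LmnC RNAi were made with Dam-LmnB1, and the map for LmnB1 RNAi with Dam-LmnA, so target and fusion cannot be told apart in the last. The 3 maps come from 6 libraries, 1 Dam-only and 1 fusion library each, so there is no replicate error and no p-value, and every SD below is a spread over the 19 chromosomes unless stated otherwise. The LmnB1 target is given by the sample descriptions, while the treatment protocol names LmnA or LmnC. No untreated map is part of the comparison, and with no RNA or protein values the loss of each lamin was not checked.

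Lamins are the filament proteins that line the inner nuclear membrane, lamins A and C being splice products of Lmna and lamin B1 the product of Lmnb1. Chromatin that touches them forms lamina-associated domains (LADs), which are mostly gene-poor, late replicating and silent. Mouse chromosomes are acrocentric, with the centromere at the end of low coordinates, and their pericentromeric satellite repeats gather in chromocentres that often lie at the nuclear periphery or around nucleoli. The satellite arrays themselves are not covered by the fragments, so the windows begin at the first mapped sequence beside them.

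The signal is the log2 ratio of fusion reads to Dam-only reads per fragment, averaged over each bin with weights by fragment length. LAD share is the percentage of fragment length in LADs of the deposited lists, a fragment being assigned by its midpoint. The windows held 485576 fragments with a median length of 247 bp, against 262 bp on the rest of the chromosomes. A bin held 256 ± 31.2 fragments in the windows and 249 ± 27.3 on the rest (SD over bins). Since the values are ratios, the depth of each library is unknown. Splitting each bin into odd and even fragments put the SD of a window bin from fragment sampling at 0.31 log2 under LmnA RNAi, 0.30 under LmnC RNAi and 0.29 under LmnB1 RNAi. This covers sampling within a pair of libraries and nothing of the spread between cultures.

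The windows lay in LADs more than the rest of their chromosomes did, on average, in every map. LADs held 74.7 ± 14.7% of the window under LmnA RNAi, against 65.9 ± 4.55% of the rest (SD, n = 19 chromosomes). Under LmnC RNAi they held 63.6 ± 16.4% of the window, against 57.0 ± 3.83% of the rest. Under LmnB1 RNAi they held 65.2 ± 16.3% of the window, against 57.7 ± 4.20% of the rest. The difference of window minus rest averaged 8.76 ± 13.3 percentage points under LmnA RNAi, 6.67 ± 15.6 under LmnC RNAi and 7.44 ± 15.6 under LmnB1 RNAi. These means are smaller than their spread over chromosomes, and the window was above the rest on 16, 13 and 14 of 19 chromosomes under LmnA, LmnC and LmnB1 RNAi. Adjusting each bin within its chromosome for its number of GATC fragments, which is higher in the windows, lowered the difference to 5.93 ± 13.5, 3.22 ± 13.6 and 3.93 ± 13.99 points, above 0 on 14, 13 and 13 chromosomes.

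The windows also varied far more than the rests. Under LmnA RNAi the window share had a minimum of 34.8%, a median of 75.4% and a maximum of 94.9%, against 53.1%, 65.7% and 73.6% for the rest. Under LmnC RNAi these values were 32.4%, 66.4% and 85.8% in the windows, against 45.6%, 56.8% and 62.6% for the rest. Under LmnB1 RNAi they were 35.2%, 70.1% and 88.0% in the windows, against 45.6%, 58.1% and 63.6% for the rest. In each map the range of the windows enclosed the whole range of the rests. A rest averages over a far longer stretch than a window, which by itself narrows its spread. In the LmnA, LmnC and LmnB1 RNAi maps the windows had SDs of 14.7, 16.4 and 16.3 points. The last 10 Mb of the chromosomes, of the window's length, had 19.03, 17.3 and 17.5 points, so the windows varied no more than these.

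**Figure D1:**
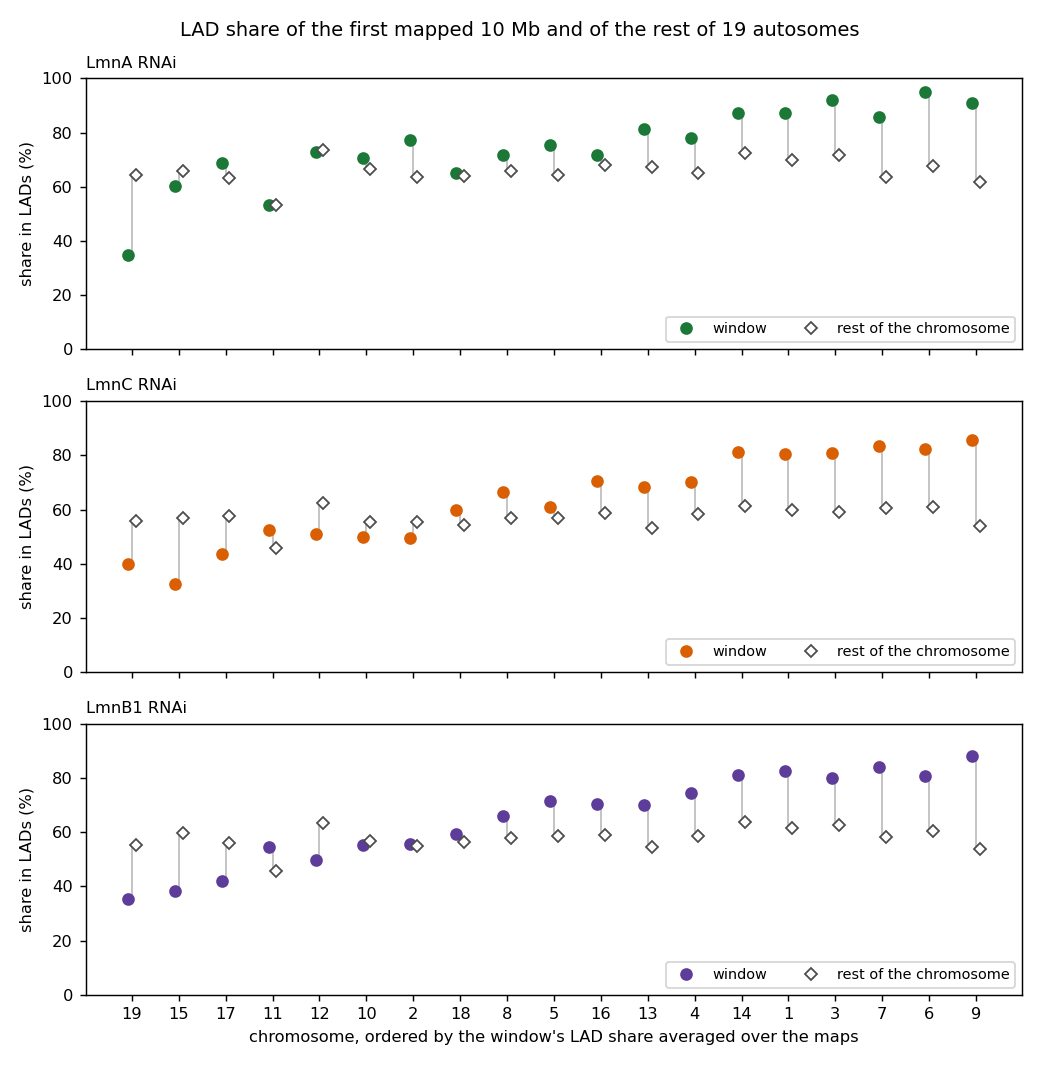
Share of fragment length in LADs (%) for the window (filled circles) and the rest of each autosome (open diamonds), with a panel for each map and chromosomes ordered by the window's share averaged over the maps. The windows of chromosomes 19, 15 and 17 stand at the low end and those of chromosomes 7, 6 and 9 at the high end, while the rests stay between 45.6% and 73.6%.

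Signal showed the same tendency. It averaged 1.03 ± 0.79 log2 in the windows and 0.63 ± 0.20 on the rest under LmnA RNAi. Under LmnC RNAi it averaged 0.05 ± 0.84 in the windows and -0.35 ± 0.19 on the rest, and under LmnB1 RNAi 0.45 ± 0.68 in the windows and 0.18 ± 0.18 on the rest. Window minus rest was 0.40 ± 0.75, 0.41 ± 0.82 and 0.27 ± 0.67 log2 in the LmnA, LmnC and LmnB1 RNAi maps, and was above 0 on 13 of 19 chromosomes in each. Part of this size comes from fragments with 0 reads in a single library, whose values lie far out in either direction and weigh heavily in a mean. Without them the difference was 0.18 ± 0.39, 0.17 ± 0.40 and 0.10 ± 0.30, again above 0 on 13 chromosomes in each map. Adjusted for fragments per bin it was 0.22 ± 0.72, 0.20 ± 0.72 and 0.11 ± 0.59 log2, above 0 on 14 chromosomes in each.

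The 3 maps largely named the same chromosomes. LAD share of the window was above that of the rest in all maps on 13 chromosomes and below it in all maps on 3, chromosomes 12, 15 and 19. On the remaining 3, chromosomes 2, 10 and 17, the window was above the rest under LmnA RNAi and below it under LmnC RNAi. On those, the LmnB1 RNAi window was above the rest on chromosome 2 (55.8% and 54.8%) and below it on chromosome 10 (55.2% and 56.6%) and chromosome 17 (41.8% and 56.0%). Signal of the window was above that of the rest in all maps on 13 chromosomes and below it in all maps on 6, chromosomes 10, 12, 15, 17, 18 and 19. The window of chromosome 18 therefore had more LAD sequence than the rest but a lower mean signal in every map. Both quantities were above the rest in all maps on 12 chromosomes.

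Chromosome 9 had the highest window share averaged over the maps. LADs held 91.0% of its window under LmnA RNAi, 85.8% under LmnC RNAi and 88.0% under LmnB1 RNAi, against 61.9%, 53.8% and 53.8% of the rest of that chromosome in the same maps. Its signal was 2.06, 1.28 and 1.54 log2 in the window, against 0.46, -0.57 and -0.05 on the rest, the largest excess of window over rest of any autosome in every map. The windows of chromosome 6 (94.9%, 82.2% and 80.7%) and chromosome 7 (85.6%, 83.3% and 83.9%) came next. Chromosome 6 had the highest window share of all under LmnA RNAi.

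Chromosome 19 had the lowest window share averaged over the maps, although under LmnC RNAi chromosome 15 was lower. LADs held 34.8% of it under LmnA RNAi, 39.9% under LmnC RNAi and 35.2% under LmnB1 RNAi, against 64.4%, 55.7% and 55.2% of the rest of the chromosome. Signal was -0.88, -1.34 and -0.86 log2 in the window, against 0.64, -0.43 and 0.08 on the rest, the largest deficit among the autosomes in every map. It was the single window with a lower LAD share under LmnA RNAi than under LmnC RNAi. Chromosome 15 followed with 60.5%, 32.4% and 38.3%, and chromosome 17 with 68.8%, 43.8% and 41.8%. In both of these the LmnA RNAi map stood well above the other maps.

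The other 13 windows averaged between 53.4% (chromosome 11) and 84.1% (chromosome 3) over the maps. The order of the windows was alike between maps. Pearson's r over the 19 windows was 0.81 for LAD share between LmnA and LmnC RNAi, 0.85 between LmnA and LmnB1 RNAi and 0.98 between LmnC and LmnB1 RNAi. Spearman's rho for the same pairs was 0.83, 0.86 and 0.96. For signal Pearson's r was 0.95, 0.97 and 0.98. Window and rest of a chromosome were less alike, with r of 0.44, 0.32 and 0.29 for LAD share within the LmnA, LmnC and LmnB1 RNAi maps. Windows with more GATC fragments per bin tended to have higher LAD shares (r of 0.33, 0.63 and 0.59). The adjusted differences between window and rest given above are the values that bear on fragment density. All of these are descriptions of 19 chromosomes that share libraries.

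The deposited LADs can be followed along each window. The map of LADs shows long unbroken runs on chromosomes 7, 14, 6 and 9 and long empty stretches at the start of chromosome 11 and after a short first LAD on chromosome 19.

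**Figure D2:**
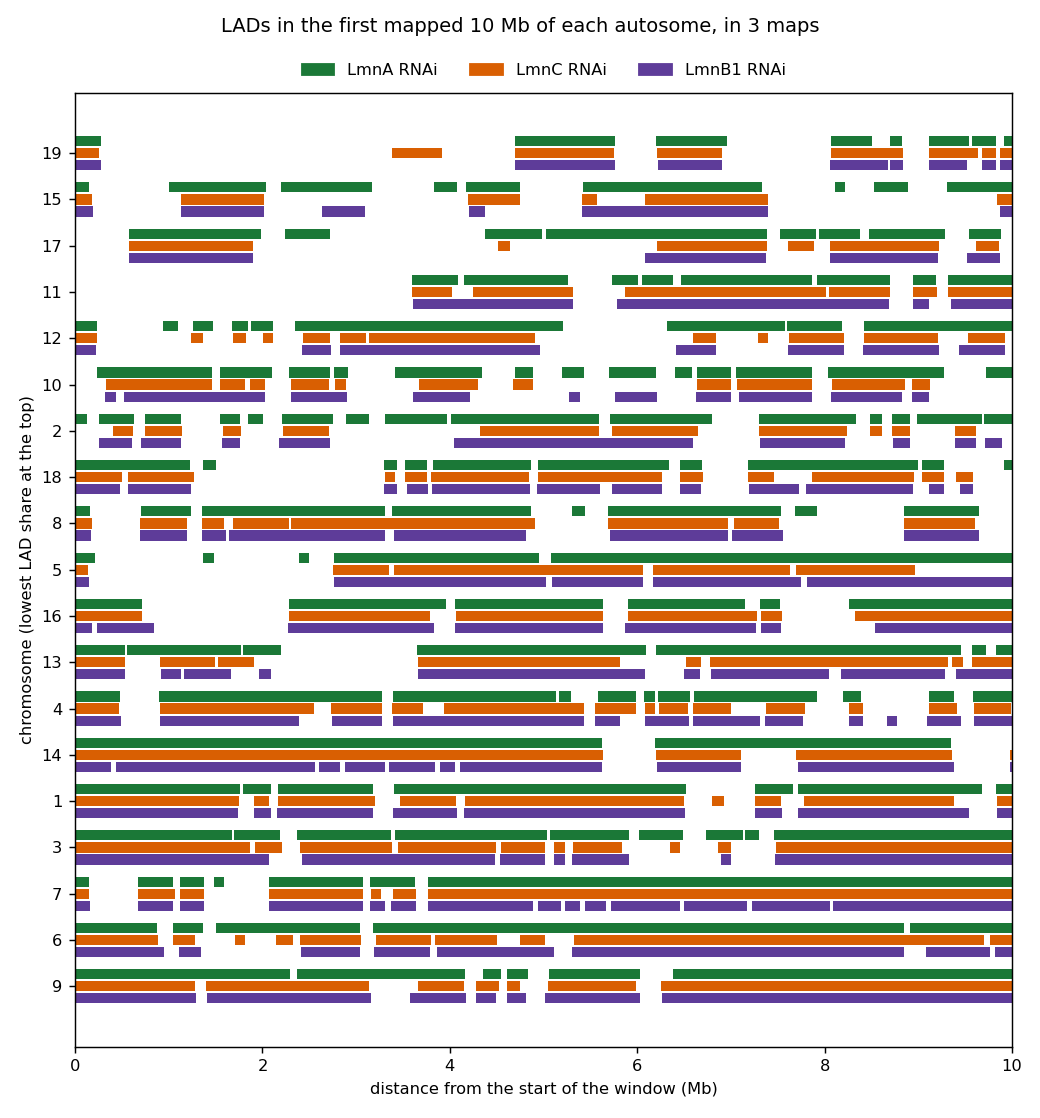
LADs of the LmnA RNAi (upper bar), LmnC RNAi (middle bar) and LmnB1 RNAi (lower bar) maps along the window of each autosome, by distance from the window's start (Mb), with the lowest LAD share at the top. Bars begin at distance 0 on most chromosomes and not on chromosomes 10, 11 and 17, and long LADs of the LmnA and LmnC RNAi maps on chromosomes 7 and 14 appear as several bars under LmnB1 RNAi.

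LADs in the windows numbered 153 under LmnA RNAi, 157 under LmnC RNAi and 155 under LmnB1 RNAi. Per 100 Mb of covered sequence that is 81.7, 83.8 and 82.7 LADs in the windows, against 69.8, 70.5 and 68.0 on the rest. LADs were cut at the window's end, and cut LADs weigh more in the short windows than on the long rest. Under LmnB1 RNAi the window count also includes splits at stretches without fragments, described below. The densities of windows and rest are thus not directly comparable. Their median length was 489, 475 and 535 kb in the windows, against 516, 443 and 487 kb on the rest. At least 1 Mb was reached by 51, 41 and 46 of them.

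The longest under LmnA RNAi were chr7:6762771-13000000 (6.24 Mb, cut at the window's end), chr6:6179658-11848216 (5.67 Mb) and chr14:3000005-8619887 (5.62 Mb). The longest under LmnC RNAi were chr7:6762000-13000000 (6.24 Mb), chr14:3000005-8629489 (5.63 Mb) and chr6:8328609-12695508 (4.37 Mb). Under LmnB1 RNAi they were chr9:9268390-13000000 (3.73 Mb), chr6:8305443-11844652 (3.54 Mb) and chr11:8785772-11690838 (2.91 Mb). The long LADs of chromosomes 7 and 14 were not lost from the LmnB1 RNAi list but split there. In chr7:6762771-13000000 signal was 2.49, 2.00 and 1.98 log2 in the LmnA, LmnC and LmnB1 RNAi maps, and 99.5% of its fragment length was in LmnB1 RNAi LADs. In chr14:3000005-8619887 signal was 3.12, 2.37 and 2.03 log2, and 100% was in LmnB1 RNAi LADs.

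The splits lay at stretches without fragments. The windows held 20 stretches of at least 10 kb without a fragment (1.19 Mb in all, on 8 chromosomes), 6 of them on chromosome 7 and 6 on chromosome 14, most of them close to 50 kb long. A single LAD spanned 18 of the 20 under LmnA RNAi and 18 under LmnC RNAi. Under LmnB1 RNAi a single LAD spanned 2, and at 14 a LAD ended on each side. Joining LADs parted by such a stretch alone took the LmnB1 RNAi count to 141 and its longest LAD to 5.62 Mb, with no change in the other maps. Counts and lengths of LADs in the windows therefore differ between LmnB1 RNAi and the other maps by the gaps as well as by the signal, while LAD shares, taken over fragments, do not count the gaps.

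Most of the window was assigned alike in the 3 maps. Of its fragment length, 59.6% lay in LADs of all maps, against 53.0% of the rest. In LADs of no map lay 23.1% of the windows, against 31.6% of the rest. LADs of the LmnA RNAi map alone held 8.70% of the windows and 6.93% of the rest, while LADs of the LmnC RNAi map alone (0.604% and 0.726%) and of the LmnB1 RNAi map alone (0.602% and 0.877%) were rare in both. The excess of the windows over the rest was thus mainly in sequence that every map placed in a LAD.

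The bp shared by both lists over the bp in either (Jaccard index) was 0.814 in the windows and 0.826 on the rest between LmnA and LmnC RNAi. Between LmnA and LmnB1 RNAi it was 0.834 in both, and between LmnC and LmnB1 RNAi 0.889 in the windows and 0.873 on the rest. Overlap of the lists near the centromere was thus close to that elsewhere. Of the windows' LmnC RNAi LADs, 97.5% lay in LmnA RNAi LADs, and of the windows' LmnA RNAi LADs, 83.1% lay in LmnC RNAi LADs. By chromosome the index between LmnA and LmnC RNAi was lowest in the window of chromosome 15 (0.513) and highest in that of chromosome 7 (0.966).

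The longest stretches in LADs of all maps were chr9:9380507-13000000 (3.62 Mb), chr6:8328609-11844652 (3.52 Mb) and chr3:10478980-13000000 (2.52 Mb), the first and last cut at the window's end. This order counts a LmnB1 RNAi LAD as ended at a stretch without fragments, which is why the longer runs of chromosomes 7 and 14 described above are not among them. The chromosome 9 stretch had a signal of 2.61 log2 under LmnA RNAi, 2.11 under LmnC RNAi and 2.22 under LmnB1 RNAi. The longest stretches in LADs of no map were chr11:3002122-6600348 (3.598 Mb), chr19:3279168-6384685 (3.11 Mb) and chr18:4498415-6297452 (1.799 Mb). Signal on the chromosome 11 stretch was -2.31, -3.07 and -2.19 log2, and on the chromosome 19 stretch -2.86, -3.14 and -2.51 log2, in the LmnA, LmnC and LmnB1 RNAi maps. The chromosome 11 stretch began at the first fragment, and that of chromosome 19 right after a first LAD of 279 kb. The windows held 169 stretches of at least 100 kb in LADs of all maps, 40 of them of 1 Mb or more, and 91 in LADs of none, 9 of them of 1 Mb or more.

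LAD share was not even along the windows. On average over chromosomes, the 4 Mb nearest the centromere were like the rest, and the excess lay further in. Single chromosomes varied widely, and under LmnA RNAi the LAD share of 3 to 7 Mb ran from 7.36% (chromosome 19) to 100% (chromosome 14). LADs held 65.7 ± 26.7% of 3 to 7 Mb in the LmnA RNAi map, 55.7 ± 26.6% in the LmnC RNAi map and 56.0 ± 26.9% in the LmnB1 RNAi map, each within 2 percentage points of the rest. They held 80.7 ± 12.9%, 69.0 ± 17.02% and 71.4 ± 17.9% of 7 to 13 Mb in the same maps. The share of 7 to 13 Mb minus that of 3 to 7 Mb was 15.0 ± 26.2, 13.3 ± 27.6 and 15.3 ± 29.6 points and was above 0 on 12 of 19 chromosomes in each map. That split was chosen after the profile was seen, and the mean is well inside the spread over chromosomes.

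Nor did the excess end with the window. The next 10 Mb, 13 to 23 Mb, had LAD shares of 77.0 ± 13.8% under LmnA RNAi, 70.3 ± 14.2% under LmnC RNAi and 71.5 ± 14.3% under LmnB1 RNAi. Set against those 10 Mb alone, the windows differed on average by -2.35 ± 21.7, -6.65 ± 22.8 and -6.31 ± 22.98 points, and were above them on 10, 7 and 7 of 19 chromosomes. The high mean share thus reached past the window. A window of 20 Mb was above its rest by 11.1 ± 9.80, 11.4 ± 10.1 and 12.1 ± 10.0 points.

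**Figure D3:**
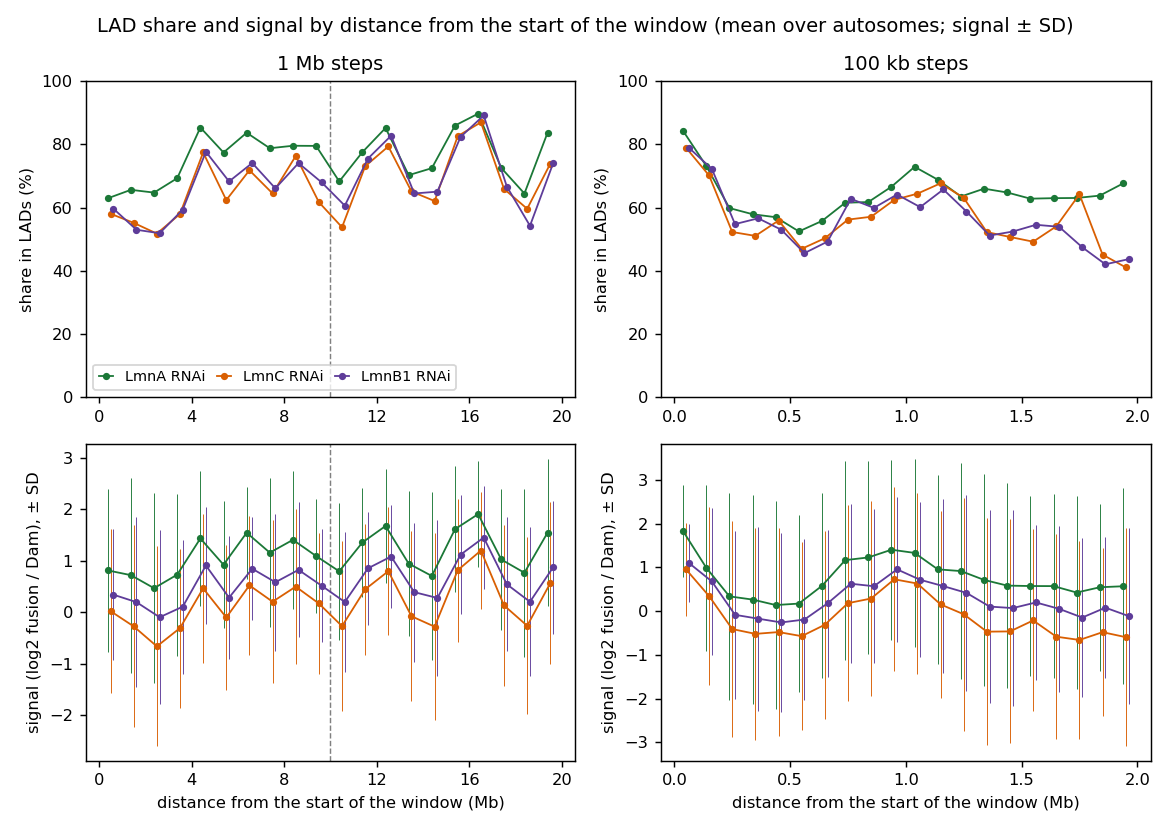
LAD share (%, mean over autosomes) and signal (log2, mean ± SD over autosomes) by distance from the start of the window, in 1 Mb steps over 20 Mb (left, dashed line at the window's end) and in 100 kb steps over the first 2 Mb (right). The first 100 kb stand at 84.2%, 78.9% and 78.9% in LADs in the LmnA, LmnC and LmnB1 RNAi maps, and the shares then dip. Beyond the window's end the LmnA RNAi share moves between 64.4% and 89.7%.

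In 1 Mb steps, signal was lowest 2 to 3 Mb from the window's start in all maps, at 0.47 ± 1.84 log2 under LmnA RNAi, -0.66 ± 1.94 under LmnC RNAi and -0.10 ± 1.68 under LmnB1 RNAi. Within the windows LAD share was highest 4 to 5 Mb from the start, at 85.3%, 77.4% and 77.6%. There 17, 16 and 15 of 19 chromosomes had more than 50% of the step in LADs, against 13, 11 and 11 at 2 to 3 Mb. On either side of the window's end, the last 1 Mb inside had LAD shares of 79.5%, 61.7% and 68.0%, and the first 1 Mb outside 68.3%, 53.8% and 60.6%. The step after that was back at 77.5%, 73.1% and 75.5%, so the drop at the end was of the size of the other ups and downs.

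From the first 100 kb, mean LAD share and signal fell over the next few bins and then rose again. LADs held 84.2% of them under LmnA RNAi and 78.9% under LmnC RNAi and under LmnB1 RNAi, and signal averaged 1.83 ± 1.05, 0.96 ± 1.07 and 1.11 ± 0.89 log2. Over 3.2 to 3.6 Mb the LAD share was 56.8%, 51.6% and 52.5%, and the signal 0.23 ± 2.16, -0.49 ± 2.22 and -0.18 ± 1.84 log2. The first 100 kb exceeded 3.2 to 3.6 Mb by 1.60 ± 1.93, 1.45 ± 2.19 and 1.28 ± 1.82 log2 and were higher on 16, 12 and 13 of 19 chromosomes. Without fragments with 0 reads in 1 library the excess was 0.74 ± 0.99, 0.78 ± 1.03 and 0.55 ± 0.81 log2. The stretch of 3.2 to 3.6 Mb was picked from the profile as an early low stretch, so the size of this gap is a description of a chosen contrast. It was not the lowest part of the profile in every map. In the bin 1.9 Mb from the window's start the LAD share was 67.6% under LmnA RNAi, 41.1% under LmnC RNAi and 43.7% under LmnB1 RNAi.

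A LAD covered the very first fragment of 16 of 19 chromosomes under LmnA RNAi and of 15 under LmnC RNAi and under LmnB1 RNAi. These included 15 shared by all maps. For comparison, LADs held 65.9%, 57.0% and 57.7% of the rest in the LmnA, LmnC and LmnB1 RNAi maps. Mapped sequence starts at that fragment, so the lengths of these first LADs are lower bounds. Chromosomes 10, 11 and 17 had none there in any map, and chromosome 2 had one under LmnA RNAi alone. On 6 of the 15, chromosomes 5, 7, 8, 12, 15 and 19, this first LAD was shorter than 300 kb in every map and was followed by a longer stretch outside LADs. On chromosome 7 it measured 149 kb under LmnA RNAi, 147 kb under LmnC RNAi and 164 kb under LmnB1 RNAi, and on chromosome 8 160, 176 and 171 kb. The lengths on those 6 chromosomes differed between maps by 16.2 to 82.5 kb. On chromosome 19 the first LAD (279, 258 and 279 kb) stood alone before more than 3 Mb outside LADs.

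**Figure D4:**
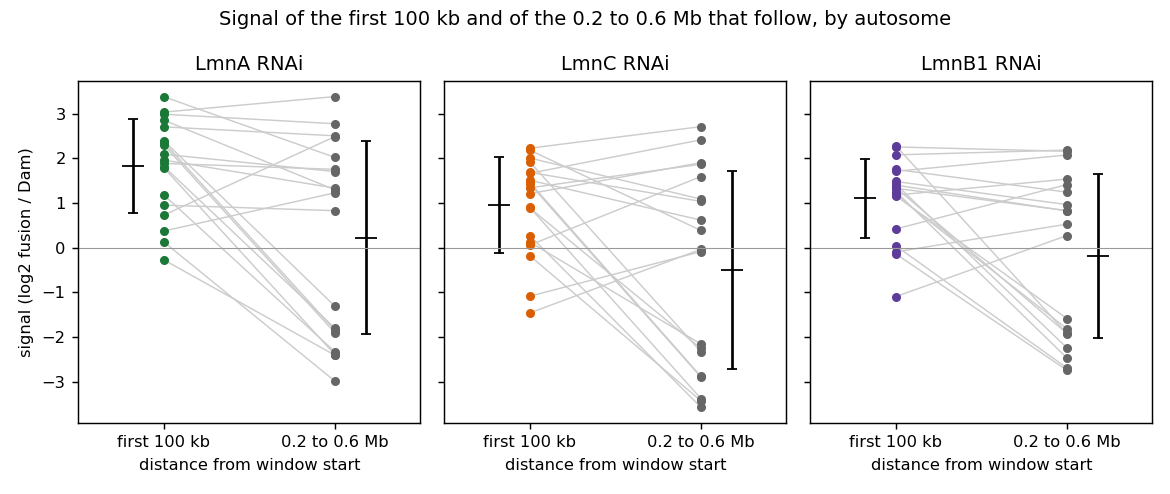
Signal (log2 fusion over Dam) of the first 100 kb of the window and of the stretch 0.2 to 0.6 Mb from its start, with a line for each of 19 autosomes, a panel for each map, and black bars for the mean ± SD. Under LmnA RNAi the later stretch splits into 8 chromosomes from -2.99 to -1.31 and 11 from 0.83 to 3.39, while the first 100 kb lie between -0.27 and 3.38.

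The highest first bin under LmnA RNAi was that of chromosome 13, with 3.38 log2, 2.01 under LmnC RNAi and 1.75 under LmnB1 RNAi. The first bin of chromosome 17, which lies outside LADs, had -0.27, -0.18 and 0.04 log2. On chromosome 2 the first bin had 0.95 log2 under LmnA RNAi against -1.08 under LmnC RNAi and -1.09 under LmnB1 RNAi. The first bin of chromosome 9, which includes stretches without fragments, held 58 fragments, so its values (0.73, 0.06 and 0.42 log2) rest on the fewest fragments.

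Reads in fragments seen in a single library leaned further to the fusion in the first 100 kb. There the ratio of fusion-only to Dam-only reads was 8.86 under LmnA RNAi, 2.60 under LmnC RNAi and 3.29 under LmnB1 RNAi. Over whole windows it was 2.73, 0.891 and 1.32, against 1.99, 0.659 and 1.04 on the rest. Counting such fragments in place of their reads gave 4.59, 2.46 and 2.70 in the first 100 kb, and 2.49, 1.32 and 1.61 over whole windows, against 1.98, 1.04 and 1.34 on the rest. Both ways of counting give the same order of first 100 kb, window and rest in each map, while the lean of the LmnC RNAi window below or above 1 depends on which is used. In the first 100 kb of all autosomes together the ratio under LmnA RNAi rests on 2996 fusion-only and 338 Dam-only reads.

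The other end of the chromosomes was lower. LADs held 74.7% of the windows and 61.3 ± 19.03% of the last 10 Mb under LmnA RNAi, 63.6% and 54.2 ± 17.3% under LmnC RNAi, and 65.2% and 53.1 ± 17.5% under LmnB1 RNAi. The window was the higher of the pair on 15, 13 and 12 of 19 chromosomes, and its signal was higher on 13 in each map. The spread between chromosomes was again larger than the mean difference of 13.4 ± 20.1, 9.42 ± 22.3 and 12.1 ± 24.3 points.

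Cutting all autosomes into 243 tiles of 10 Mb, between 6 and 19 on a chromosome, set the windows among stretches of the same length. The window was the tile of its chromosome with the highest LAD share on 2 chromosomes in each map, chromosomes 6 and 9 under LmnA RNAi and chromosomes 7 and 9 under LmnC RNAi and under LmnB1 RNAi. It was the tile with the lowest share on chromosome 19 under LmnA RNAi and on none in the other maps. The median SD of the other tiles within a chromosome was 17.5, 18.3 and 18.9 points. Windows above the rest of their chromosome by more than 1 SD of its other tiles numbered 5, 4 and 4, and windows below by as much 1, 0 and 1. How many of the other tiles pass the same step was not counted, so these numbers have no background beside them.

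The comparison of LmnA RNAi with LmnC RNAi, made with the same fusion, sets depletion of each splice product beside the other. In the windows the signal as deposited was higher under LmnA RNAi on every one of the 19 chromosomes, by 0.97 ± 0.27 log2 in the mean. The rest of the chromosomes gave nearly the same value, 0.98 ± 0.07. The difference between maps in the window minus that on the rest was -0.01 ± 0.28 and was above 0 on 8 of 19 chromosomes, so the windows as a group did not stand out. The windows did spread more than the far longer rests, with a minimum of 0.46 on chromosome 19 and a maximum of 1.35 on chromosome 4.

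The level of this difference rests on the scale of each map. Without fragments with 0 reads in 1 library it was 0.31 ± 0.13 log2 in the windows and 0.30 on the rest. After each map was centred on its median autosomal bin it was -0.18 in the windows and -0.17 on the rest. The sign of the signal difference between the maps thus turned with the centring, in the windows and on the rest alike. LAD share, which carries the authors' own LAD calls, was higher under LmnA RNAi by 11.1 ± 9.66 points in the windows and on 18 of 19 chromosomes, with the exception of chromosome 19 (-5.05 points) and the largest gap on chromosome 15 (28.0 points). On the rest it was higher by 8.97 ± 2.56 points, and the gap in the window was the larger on 8 of 19 chromosomes.

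LmnB1 RNAi differs from the other maps in the fusion as well as the target. Signal in the windows was higher under LmnA RNAi than under LmnB1 RNAi by 0.58 ± 0.21 log2, against 0.45 ± 0.06 on the rest. That is a difference of 0.13 ± 0.23 between window and rest, above 0 on 15 of 19 chromosomes. Signal under LmnC RNAi was lower than under LmnB1 RNAi, at -0.40 ± 0.22 log2 in the windows and -0.53 ± 0.06 on the rest, a difference of 0.13 ± 0.23 that was above 0 on 13 chromosomes. Both differences are smaller than their spread over chromosomes, and against 13 to 23 Mb alone they were 0.043 ± 0.24 and -0.0085 ± 0.28. Both of these comparisons use the same LmnB1 RNAi libraries. Without fragments with 0 reads in 1 library the differences of window minus rest were 0.08 ± 0.13 and 0.07 ± 0.12 log2.

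LAD share in the windows was 9.51 ± 8.70 points higher under LmnA RNAi than under LmnB1 RNAi, with the largest gap on chromosome 17 (27.0 points), and 8.19 ± 1.73 points higher on the rest. The gap in the window was the larger on 7 of 19 chromosomes. Between LmnC and LmnB1 RNAi it differed by -1.55 ± 3.56 points in the windows and by -0.779 ± 1.52 on the rest. The largest gap of that pair was on chromosome 5, with -10.5 points.

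**Figure D5:**
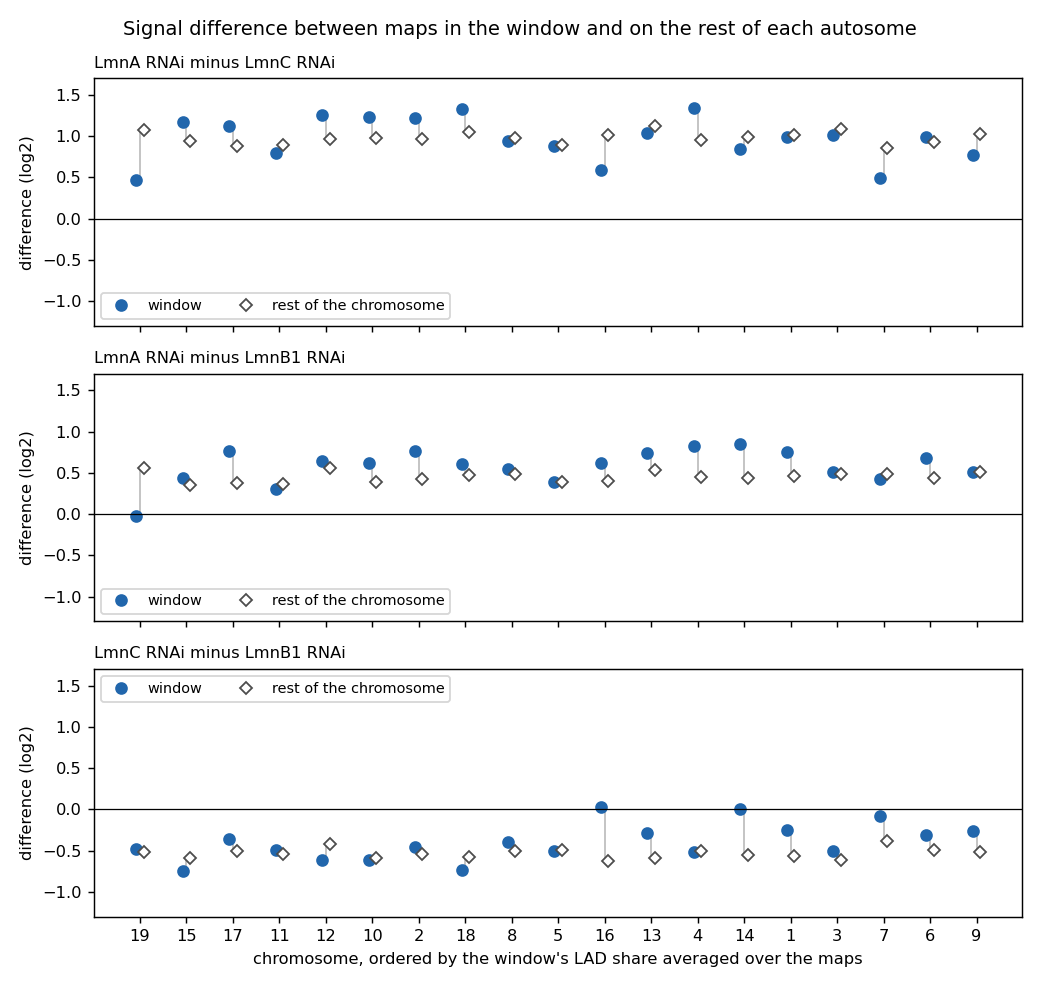
Signal difference (log2) between maps in the window (filled circles) and on the rest (open diamonds) of each autosome, as deposited, with a panel for each pair of maps and chromosomes ordered by the window's LAD share. The windows scatter about the rests, with chromosomes 19, 7 and 16 lowest for LmnA minus LmnC RNAi and chromosome 19 at -0.02 for LmnA minus LmnB1 RNAi.

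At a step of more than 0.5 log2 as deposited, 1425 window bins (75.4%) were higher under LmnA RNAi than under LmnC RNAi, against 75.8% of all autosomal bins, and 10 (0.529%) were lower, against 0.806%. For LmnA RNAi over LmnB1 RNAi, 1076 window bins (56.9%) were higher, against 48.6%, and 101 (5.34%) were lower, against 8.27%. For LmnC RNAi over LmnB1 RNAi, 128 (6.77%) were higher, against 4.7%, and 824 (43.6%) were lower, against 50.5%. The shares for LmnA against LmnC RNAi were at the background, and those against LmnB1 RNAi lay within 9 percentage points of it.

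Centring each map turned these splits. With centring, 299 window bins were higher and 637 lower under LmnA RNAi than under LmnC RNAi, against 15.5% and 32.6% of all bins. For LmnA RNAi over LmnB1 RNAi the counts were 312 higher and 492 lower, against 13.7% and 33.5%. For LmnC RNAi over LmnB1 RNAi they were 465 higher and 327 lower, against 19.7% and 24.1%. In the windows the last pair thus leaned to LmnC RNAi while all autosomal bins leaned the other way.

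Fewer bins passed the step without fragments with 0 reads in 1 library. For LmnA RNAi over LmnC RNAi, 434 window bins were higher and 1 was lower, against 22.4% and 0.0752% of all bins. For LmnA RNAi over LmnB1 RNAi, 407 were higher and 37 lower, against 16.6% and 2.55%, and for LmnC RNAi over LmnB1 RNAi 23 were higher and 133 lower, against 0.593% and 10.3%. The direction of each split was that of the deposited values.

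Single bins and stretches show where the maps parted. Between LmnA and LmnC RNAi the bins with the largest excess were chr12:10200001-10300000 (3.90 log2), chr13:9400001-9500000 (3.53) and chr4:5600001-5700000 (3.50), each wholly in LADs under LmnA RNAi and at most 9.11% in LADs under LmnC RNAi. In the chromosome 12 bin the signal was 0.78 log2 under LmnA RNAi, -3.16 under LmnC RNAi and -0.93 under LmnB1 RNAi. The bins furthest the other way were chr19:6600001-6700000 (-1.16), chr19:6100001-6200000 (-1.05) and chr7:4800001-4900000 (-0.91). These bins were picked as extremes between single maps. Without fragments with 0 reads in 1 library the first 3 differences were 1.09, 1.46 and 1.37 log2, which changes their order, and the last 3 were -0.38, -0.44 and -0.21. The SE from fragments of the chromosome 7 bin was 0.38 under LmnA RNAi and 0.64 under LmnC RNAi, so its difference is not resolved from sampling. For chr19:6600001-6700000 the SEs in these maps were 0.47 and 0.45, and for chr19:6100001-6200000 0.39 and 0.34. Those 2 deficits are therefore not clearly resolved either.

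Between LmnA and LmnB1 RNAi the largest excesses were in chr10:12200001-12300000 (3.09 log2), chr4:5500001-5600000 (2.75) and chr2:12900001-13000000 (2.69). The largest deficits were in chr18:12400001-12500000 (-1.44), chr19:4800001-4900000 (-1.44) and chr7:4800001-4900000 (-1.43). The last was also among the lowest against LmnC RNAi, but both contrasts use the same LmnA RNAi libraries. In these bins the SE from fragments was 0.27, 0.39 and 0.38 under LmnA RNAi and 0.24, 0.32 and 0.35 under LmnB1 RNAi. Without fragments with 0 reads in 1 library the excesses were 0.83, 1.19 and 0.70 log2 and the deficits -0.64, -0.42 and -0.44. Between LmnC and LmnB1 RNAi the largest excesses were in chr14:8000001-8100000 (1.34), chr14:7000001-7100000 (1.31) and chr9:6800001-6900000 (1.31), which lay in LADs of all maps. The largest deficits were in chr12:9500001-9600000 (-2.53), chr12:10000001-10100000 (-2.50) and chr19:8900001-9000000 (-2.34). Without those fragments these were 0.47, 0.45 and 0.51 log2 for the excesses and -0.62, -0.46 and -0.61 for the deficits. In chr14:7000001-7100000 the SE from fragments was 0.45 under LmnC RNAi and 0.53 under LmnB1 RNAi, so its excess is not clearly resolved from sampling. Part of chromosome 12 near 10 Mb thus appeared among the extremes of both pairs that hold LmnC RNAi, with the LmnC RNAi map as the low side. Those pairs share the LmnC RNAi libraries and name different bins there, so this is not a repeated observation.

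In both pairs with LmnA RNAi, LAD sequence found in a single map of the pair was mostly that of LmnA RNAi. In the windows, 72 stretches of at least 100 kb (19.99 Mb on 18 chromosomes) lay in LmnA RNAi LADs and outside LmnC RNAi LADs, against 9 (1.68 Mb) the other way. Such sequence of any length was 12.6% of the windows and 10.4% of the rest for LmnA without LmnC RNAi, and 1.57% and 1.41% the other way, so the lean was much the same outside the windows. The longest were chr17:8021536-9212410 (1.19 Mb), chr5:11959749-13000000 (1.04 Mb) and chr15:5197437-6164875 (0.967 Mb). On the chromosome 17 stretch the signal was 0.05 log2 under LmnA RNAi, -1.39 under LmnC RNAi and -0.90 under LmnB1 RNAi. The longest the other way were chr19:6384686-6913286 (0.529 Mb, of which 200625 bp hold no fragment), chr19:11505207-11702056 (0.197 Mb) and chr18:12397153-12588437 (0.191 Mb). On the first of these the signal was below 0 in every map, at -1.46 log2 under LmnA RNAi, -0.81 under LmnC RNAi and -0.80 under LmnB1 RNAi.

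Against LmnB1 RNAi, 71 stretches (17.7 Mb) lay in LmnA RNAi LADs and outside LmnB1 RNAi LADs, against 10 (1.22 Mb) the other way. At any length such sequence was 11.1% of the windows and 9.70% of the rest for LmnA without LmnB1 RNAi, and 1.57% and 1.56% the other way. The longest were chr17:8021536-9077853 (1.06 Mb), chr6:4503256-5407773 (0.905 Mb) and chr12:9843766-10573824 (0.730 Mb), and the other way chr19:11505207-11672716 (0.168 Mb), chr4:8293535-8429416 (0.136 Mb) and chr18:12449623-12581735 (0.132 Mb). Signal on the chromosome 4 stretch was 1.05 log2 under LmnA RNAi, -0.11 under LmnC RNAi and 0.67 under LmnB1 RNAi as deposited. Between LmnC and LmnB1 RNAi, 23 stretches (4.17 Mb) lay in LmnC RNAi LADs and outside LmnB1 RNAi LADs, against 21 (5.69 Mb) the other way. At any length these were 3.01% of the windows and 3.49% of the rest, and 4.55% and 4.30% the other way. These percentages are taken over fragments, while the lengths of stretches include sequence without fragments. At chr13:11041611-11173703, without a fragment, a LAD spanned the gap under LmnA and LmnC RNAi but not under LmnB1 RNAi. Being longer than 100 kb, that gap can enter the counts of 71 and 23.

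Of that last pair, the longest in LmnC RNAi LADs and outside LmnB1 RNAi LADs were chr19:6384686-6913286 (0.529 Mb), chr15:7377834-7745424 (0.368 Mb) and chr17:10613230-10888879 (0.276 Mb). The chromosome 15 and 17 stretches also lay wholly in LmnA RNAi LADs. The longest in LmnB1 RNAi LADs and outside LmnC RNAi LADs were chr5:11959749-13000000 (1.04 Mb), chr15:8569659-9082971 (0.513 Mb) and chr15:5632323-6094887 (0.463 Mb). All of these also lay wholly in LmnA RNAi LADs. The chromosome 5 stretch was thus outside LADs in the LmnC RNAi map alone, with signals of 0.80, -0.63 and 0.35 log2 in the LmnA, LmnC and LmnB1 RNAi maps. Genes in these regions are not given, because the build of the gene tables used here is not that of the files.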

How the data were processed

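Lamina contact was measured by DamID in 6 libraries of MEF genomic DNA that form 3 maps. Reads were aligned with Bowtie to mm9, per the submitters' processing notes, which give no version. For the read filters, the ratio step and the LAD caller, no method is stated there. The authors deposited 1 value per GATC fragment on a log2 scale. Judged by their steps, the values are log2 ratios of fusion to Dam-only reads, each raised by 1e-05, shifted by a constant of the map. Values further than 12 from that constant were read as 0 reads in 1 library, and reads recovered there were whole within 0.02 in 100% of values tested. The deposited LAD lists give starts and ends.

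From these files, length-weighted means over 100 kb bins, LAD shares, differences within chromosomes and stretches of at least 100 kb were computed in Python 3.11.15 (numpy 2.4.6, pandas 2.3.3), and the code was tested on simulated data. With 1 map per group no test was run. Named regions are the 3 most extreme of each list (share, LAD length, shared or unshared stretch, bin difference). The window, lists and settings were chosen with earlier results of these data known. Alternatives are given in the closing section. Coordinates are 1-based. No gene names or sequences are given, because no mm9 genome or annotation was used here.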

Additional observations from a re-analysis of the deposited data

How the results depend on the processing

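Besides leaving out each chromosome in turn, 19 alternatives were tried on 30 results. No paired analysis was possible because each group is 1 map with no replicates.

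The excess of the windows depended on fragment density, on single-library fragments and on what they were set against. Adjusted for GATC fragments per bin it was 5.93, 3.22 and 3.93 points in LAD share and 0.22, 0.20 and 0.11 log2 in signal, and with values limited to 4 either side of the constant 0.21, 0.20 and 0.13 log2. Against 13 to 23 Mb alone, window minus rest was -0.21, -0.26 and -0.25 log2 in signal and -2.35, -6.65 and -6.31 points in LAD share for LmnA, LmnC and LmnB1 RNAi. There signal was above the rest on 8 chromosomes for LmnA RNAi and on 8 for LmnC RNAi, and 10, 7 and 7 had LAD share above it. The difference of LmnC minus LmnB1 RNAi between window and rest became -0.0085. Taking 3 to 7 Mb as the window gave LAD differences of -0.213, -1.27 and -1.72 points, above 0 on 10, 8 and 10 chromosomes. Its signal differences were 0.057, 0.050 and -0.039 log2, above 0 on 9, 9 and 8. A window of 5 Mb gave 3.19, 2.68 and 2.16 points and 0.19, 0.18 and 0.10 log2. That 3 to 7 Mb window, and a window without its first 300 kb (8.84, 6.57 and 7.34 points), were added after seeing the data. With any 1 chromosome left out, the LAD difference stayed between 7.63 and 10.9 points for LmnA RNAi, 5.26 and 8.39 for LmnC RNAi and 5.96 and 9.04 for LmnB1 RNAi.

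Levels between maps depended on the scale. In the order LmnA minus LmnC, LmnA minus LmnB1 and LmnC minus LmnB1 RNAi, the signal difference in the windows was 0.31, 0.24 and -0.074 log2 without fragments with 0 reads in 1 library. It was 0.35, 0.26 and -0.094 with values limited to 4 either side of the constant, -0.18, -0.10 and 0.074 with each map centred, and 0.014, 0.084 and 0.070 after quantile normalization. Percentages of window bins past the step follow as higher and lower for each of these pairs in turn. They were 22.95 and 0.0529, 21.5 and 1.96, and 1.22 and 7.03 without those fragments. With limited values they were 29.5 and 0.159, 23.1 and 1.75, and 1.96 and 8.46. Centred, they were 15.8 and 33.7, 16.5 and 26.0, and 24.6 and 17.3. After quantile normalization they were 19.5 and 18.9, 24.4 and 17.03, and 19.5 and 13.4. A step of 1 log2 gave 44.9 and 0.106, 24.7 and 1.32, and 0.952 and 16.2. Bins of 500 kb gave 0% lower for LmnA than for LmnC RNAi, 2.63% lower for LmnA than for LmnB1 RNAi and 2.37% higher for LmnC than for LmnB1 RNAi. For limited values, quantile normalization, the step of 1 log2 and bins of 500 kb, the shares over all autosomal bins were not computed. Those percentages have no background beside them and cannot be read as particular to the windows. The cause of the changes between settings was not tested. With 1 map a group, no value can be set against replicate error.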

Other observations

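Chromosome X lies outside the comparison of autosomes, and its window went the other way. LADs held 61.2% of its 3 to 13 Mb (96 bins) under LmnA RNAi, against 84.4% of the rest (1521 bins). Under LmnC RNAi they held 54.4% of the window and 76.8% of the rest, and under LmnB1 RNAi 55.5% of the window and 79.1% of the rest. Signal was 0.39, -1.13 and -0.27 log2 in the window, against 1.63, 0.36 and 1.16 on the rest, in the same maps. Without fragments with 0 reads in 1 library it was -0.13, -0.34 and -0.25 log2 in the window, against 0.39, 0.20 and 0.22 on the rest. Among the autosomes the lowest values of window minus rest were -29.5 points under LmnA RNAi (chromosome 19), -24.3 under LmnC RNAi (chromosome 15) and -21.3 under LmnB1 RNAi (chromosome 15).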
